A study of Homo sapiens with 8 samples.

Results

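A set of 10 receptor and adaptor genes of B cell activation was followed in 2 cell lines of diffuse large B cell lymphoma, HT and SUDHL6. The genes were chosen by symbol, with earlier results of these data known, as FCER2, CR2, CD40, CD80, CD86, CD44, CD27, TNFRSF14, TNFRSF13C and BANK1. Of these 10 genes, 9 were measured in at least 1 line: 8 among the 13701 genes of the HT table and 8 among the 13036 genes of the SUDHL6 table, with 7 in both. FCER2 was measured in SUDHL6 only and CR2 in HT only, and CD44 was not analysed here. Each line was grown for 96 hours, sampled at day 4, either with iEZH or with DMSO, the solvent. The agent that the labels call iEZH is, going by the series' title, an inhibitor of PRC2, which methylates lysine 27 of histone H3. There were 4 groups of 2 libraries: HT with DMSO, HT with iEZH, SUDHL6 with DMSO and SUDHL6 with iEZH. Both are established cell lines, grown without the other cells of a lymphoma. Nothing in the labels says that the replicates came from separate cultures, so p-values measure the spread between these libraries, which may be technical. With iEZH, FCER2 in SUDHL6 went from a mean of 1.66 to 8.46 FPKM and CD80 in HT from 7.99 to 4.4 FPKM, the largest log2 differences in either direction among those tested. Neither passed over all genes, and 0 of the 7 receptor genes tested in each line did, where 0.609% of all genes tested in HT and 0.269% in SUDHL6 passed. FPKM counts sequenced fragments relative to transcript length and to the library's mapped reads.

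A B cell that has met antigen waits for a second signal, and most of these genes take part in it. CR2 binds complement fragments on the antigen and lowers the threshold of the B cell receptor. CD40, CD27, TNFRSF13C and TNFRSF14 are receptors of the TNF receptor family that signal from T cells or from survival factors, and CD80 and CD86 let the B cell costimulate T cells in return. FCER2 (CD23) is a low-affinity receptor for immunoglobulin E found on resting and IL-4-stimulated B cells, and BANK1 is a scaffold that joins the kinase LYN to calcium channels. Germinal centre B cells, the normal counterpart of many of these lymphomas, usually carry little FCER2.

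The libraries held 59563321 to 94821806 reads. The B cell markers MS4A1, CD79A, CD79B, PAX5 and CD22 were all measured in both lines. Their summed level was 1507 to 1852 FPKM in HT and 3342 to 4145 FPKM in SUDHL6. Of 7 T and NK cell markers, 5 were measured in HT, with a summed level of 0.96 to 2.94 FPKM, and 0 in SUDHL6. Of 7 myeloid markers, 4 were measured in HT, where CD33 alone reached 55.9 to 70.1 FPKM while CD14 stayed at 0.152 to 0.25 FPKM, and 2 were measured in SUDHL6, with a summed level of 2.11 to 2.52 FPKM. Of 4 dendritic cell markers, 2 were measured in HT, chiefly LAMP3 with 6.06 and 9.02 FPKM in DMSO and 11.6 and 19.9 FPKM in iEZH, and 0 in SUDHL6. Of 7 epithelial and stromal markers, HT held 2 (DCN and LUM, 3.27 to 5.42 FPKM together) and SUDHL6 0. Transcripts of EZH2, the catalytic subunit of PRC2, stood at 55.9 to 63.6 FPKM in DMSO libraries of HT and at 58.7 to 63.1 FPKM in those of SUDHL6. With iEZH the values were 49.4 to 56.2 FPKM in HT and 47.5 to 54.9 FPKM in SUDHL6, and an inhibitor of the enzyme need not change them.

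The windows before the transcription starts of 3 of the genes are shown because FCER2 had the largest difference with iEZH, TNFRSF14 was the lowest of them in SUDHL6 and held matches to both motifs marked, and CD80 was lower with iEZH in both lines. They are the 250 bases before each start in RefSeq's table for GRCh38.p14, a build other than the hg19 of the expression tables, written on the strand of the gene. Capitals mark matches, on either strand, to TTC and GAA with 4 free bases between them, the letters bound by STAT6, or to the usual degenerate NF-kB motif. FCER2 has 2 starts in the table (first chr19:7702132-7702381, minus strand; second chr19:7699442-7699691, minus strand). TNFRSF14 lies at chr1:2556121-2556370, plus strand and CD80 at chr3:119559615-119559864, minus strand. The bases just after the CD80 start were not found in a transcript of that gene in the GENCODE annotation. Those after the FCER2 and TNFRSF14 starts were found in transcripts of their genes.
FCER2 first start: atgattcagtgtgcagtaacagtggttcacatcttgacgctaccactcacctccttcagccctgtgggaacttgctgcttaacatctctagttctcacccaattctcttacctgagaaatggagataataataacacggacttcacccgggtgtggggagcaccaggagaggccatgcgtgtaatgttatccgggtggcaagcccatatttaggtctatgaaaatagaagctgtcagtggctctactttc
FCER2 second start: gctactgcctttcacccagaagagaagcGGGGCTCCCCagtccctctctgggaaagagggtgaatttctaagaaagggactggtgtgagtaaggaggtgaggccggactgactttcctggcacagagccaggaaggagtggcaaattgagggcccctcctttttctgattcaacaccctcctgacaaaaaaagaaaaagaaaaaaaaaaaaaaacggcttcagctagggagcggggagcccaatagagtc
TNFRSF14: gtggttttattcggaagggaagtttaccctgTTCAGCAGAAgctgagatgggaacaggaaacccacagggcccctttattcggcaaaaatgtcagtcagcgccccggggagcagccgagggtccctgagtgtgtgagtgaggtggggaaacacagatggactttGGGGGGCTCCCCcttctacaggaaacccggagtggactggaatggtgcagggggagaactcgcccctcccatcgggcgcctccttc
CD80: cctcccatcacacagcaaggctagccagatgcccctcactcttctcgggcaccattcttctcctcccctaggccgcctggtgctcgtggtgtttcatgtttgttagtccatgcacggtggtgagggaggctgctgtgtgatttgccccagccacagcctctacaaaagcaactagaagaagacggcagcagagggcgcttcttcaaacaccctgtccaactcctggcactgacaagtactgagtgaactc

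The second FCER2 window held 1 NF-kB match, beginning at position -222, and no STAT6 match, whereas the first held neither. The TNFRSF14 window held 3 overlapping NF-kB matches and 1 STAT6 match, which begins at -219, and the CD80 window held none of either. The window of the second CD86 start, not shown, held 2 overlapping NF-kB matches. Among 35116 windows of the same length, 9.96% held the NF-kB motif and 5.38% the STAT6 letters. The letters TGGGAA, bound by the Notch effector RBPJ, occurred once in each FCER2 window and once in those of TNFRSF14 and CD27. The second CD86 window held 2 matches to them, and 20.8% of all windows held them. As for CD80, the bases just after the second CD86 start and the CD27 start were not found in GENCODE transcripts of those genes. Of the 10 genes, 8 matched the table, with 11 windows. Their GC content ran from 34% at the first CD86 start to 62.8% at CR2, against a median of 58% over all windows. FCER2 had 5 and 4 CpG pairs per window and CR2 17, where the median over all windows was 11. These matches describe letters and show no binding.

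FCER2 had the largest difference with iEZH among the receptor genes (hg19 chromosome 19, 7753642 to 7767032). In SUDHL6 the DMSO libraries held 2.03 and 1.3 FPKM, and the iEZH libraries 11.7 and 5.18 FPKM. Both iEZH values exceeded both DMSO values, but the iEZH libraries themselves were more than a factor of 2 apart. The mean went from 1.66 ± 0.517 to 8.46 ± 4.63 FPKM (SD, n = 2), a ratio of 5.08. On the log2(FPKM + 1) scale the change was 1.75 (SE 0.38, 95% interval 0.73 to 2.77), a value above 99.5% of the genes tested in SUDHL6. It did not pass over all genes (limma, adjusted p = 0.137, and 0.095 in a fit without genes spanning under 300 bp). Without iEZH replicate 2, the lower of the pair, the log2 change was 2.27 and it passed (adjusted p = 0.0265), with the lone iEZH library assumed to vary like the DMSO ones. The other 3 single-library omissions left adjusted p values of up to 0.311. The authors' deposited table gives FCER2 a fold of 5.08 and an FDR of 0.516. FCER2 went from a level above 8.27% of the tested genes with DMSO to one above 33% with iEZH. In such bulk libraries more cells with FCER2 and more FCER2 RNA per cell cannot be told apart.

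CR2 (CD21), the complement receptor, was measured in HT (chromosome 1, 207627644 to 207663240). The DMSO libraries held 12.2 and 14.2 FPKM and the iEZH libraries 8.41 and 11.2 FPKM. Both iEZH libraries lay below both DMSO libraries, by a margin smaller than the distance between the iEZH libraries. The log2 change was -0.40 (SE 0.18, 95% interval -0.85 to 0.05; limma, adjusted p = 0.279), so a difference beyond the spread was not shown. It was -0.21 without iEZH replicate 1 and -0.59 without iEZH replicate 2.

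**Figure D1:**
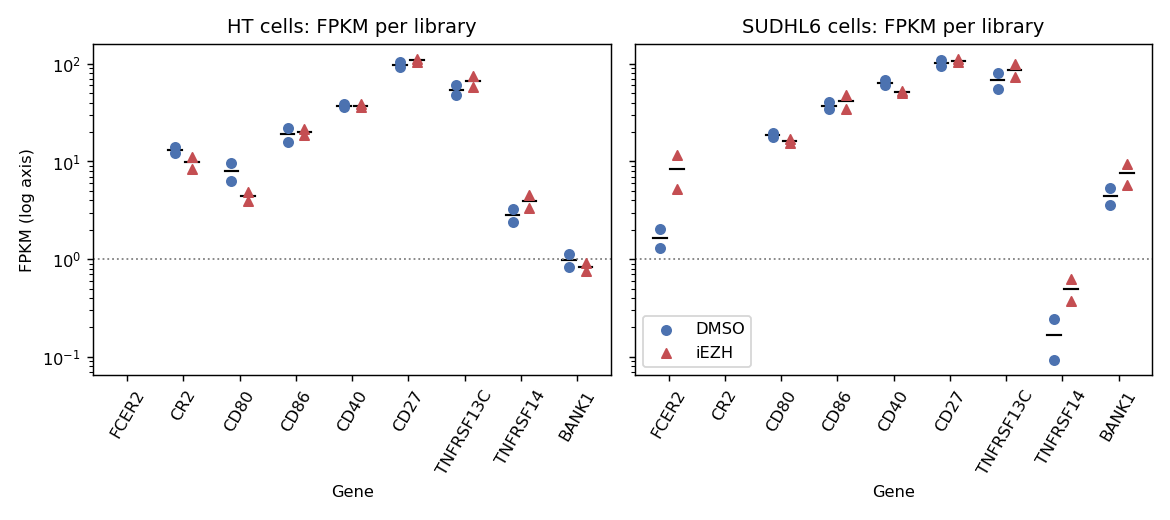
FPKM of the 9 measured receptor genes in each library of HT (left) and SUDHL6 (right), on a log axis; circles are DMSO and triangles iEZH libraries, bars are means of 2, and the dotted line is the 1 FPKM level of the filter. FCER2 in SUDHL6 shows the widest separation, from 1.3 and 2.03 to 5.18 and 11.7 FPKM, while TNFRSF14 in SUDHL6 and BANK1 in HT sit near or under the dotted line.

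CD80 and CD86, the B7 proteins that bind CD28 and CTLA4 on T cells, both lie on chromosome 3. CD80 (119243139 to 119278481) stood at 6.37 and 9.6 FPKM in HT with DMSO and at 3.96 and 4.84 FPKM with iEZH. In SUDHL6 it stood at 17.6 and 19.8 FPKM with DMSO and at 15.3 and 16.8 FPKM with iEZH. In each line both iEZH libraries were below both DMSO libraries. The ratio of means was 0.551 in HT and 0.861 in SUDHL6. The log2 change in HT was -0.72 (SE 0.21, 95% interval -1.26 to -0.17), lower than that of all but 2.06% of the genes tested, and it did not pass (limma, adjusted p = 0.148, and 0.0928 without short genes). Without DMSO replicate 2 it was -0.45. In SUDHL6 it was -0.20 (SE 0.12, 95% interval -0.52 to 0.11; adjusted p = 0.441), and -0.12 without DMSO replicate 2. The difference between the lines, SUDHL6 minus HT, was 0.51 (SE 0.26, 95% interval -0.11 to 1.13) with an adjusted p of 0.552 in the limma interaction, and 0.25 without HT DMSO replicate 2 and 0.77 without HT DMSO replicate 1.

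CD86 (121774208 to 121839988) overlapped between treatments in both lines. In HT it held 15.8 and 22.1 FPKM with DMSO and 18.5 and 21.3 FPKM with iEZH. In SUDHL6 it held 34.4 and 40.3 FPKM with DMSO and 34.2 and 48.1 FPKM with iEZH. The log2 changes were 0.08 (95% interval -0.40 to 0.57) in HT and 0.12 (-0.42 to 0.66) in SUDHL6. Changes inside these intervals, in either direction, were not excluded by these libraries. The limma adjusted p values were 0.848 and 0.807.

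CD40 (chromosome 20, 44746905 to 44758384), the receptor for T cell CD40 ligand, kept its level in HT to within the spread. The HT libraries held 35.7 and 38.9 FPKM with DMSO and 36.4 and 38.4 FPKM with iEZH, a ratio of means of 1 and a log2 change of 0.00 (SE 0.12, 95% interval -0.30 to 0.30; limma, adjusted p = 0.994). In SUDHL6 the DMSO libraries held 67.6 and 60.8 FPKM and the iEZH libraries 52.2 and 50.8 FPKM. There both iEZH libraries lay below both DMSO libraries, with a ratio of means of 0.802. The log2 change was -0.31 (SE 0.12, 95% interval -0.63 to 0.00) and did not pass (limma, adjusted p = 0.272). SUDHL6 minus HT came to -0.31 (SE 0.15; interaction adjusted p = 0.523), so a difference between the lines was not shown.

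CD27 (chromosome 12, 6554050 to 6560884), the receptor for CD70 and a marker of antigen-experienced B cells, had the highest level of the receptor genes in both lines. In HT it held 92.6 and 103 FPKM with DMSO and 105 and 112 FPKM with iEZH, which do not overlap but lie close together. In SUDHL6 it held 109.9 and 96 FPKM with DMSO and 111 and 105 FPKM with iEZH, which overlap. The log2 changes were 0.14 (95% interval -0.17 to 0.46) and 0.07 (-0.29 to 0.43), with limma adjusted p values of 0.562 and 0.839. The DMSO levels exceeded those of 91.5% of the tested genes in HT and of 92.3% in SUDHL6.

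TNFRSF13C (chromosome 22, 42321035 to 42322821), the receptor through which BAFF sustains B cells, had higher means with iEZH in both lines and overlapping libraries. It held 47.5 and 60.8 FPKM with DMSO and 57.7 and 75.1 FPKM with iEZH in HT. In SUDHL6 it held 55.2 and 80.2 FPKM with DMSO and 73.6 and 100.5 FPKM with iEZH. In each treatment and line replicate 2 was above replicate 1. The ratios of iEZH to DMSO between same-numbered libraries, which no label pairs, were 1.22 and 1.24 in HT. In SUDHL6 they were 1.33 and 1.25. The log2 changes were 0.29 (SE 0.19) in HT and 0.36 (SE 0.26) in SUDHL6 (limma, adjusted p = 0.457 and 0.529). Leaving out single libraries moved both: in HT the log2 change was 0.11 without DMSO replicate 1, 0.10 without iEZH replicate 2, 0.46 without DMSO replicate 2 and 0.48 without iEZH replicate 1. In SUDHL6 the same omissions gave 0.099, 0.14, 0.63 and 0.59.

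TNFRSF14 (chromosome 1, 2487804 to 2495267), the herpesvirus entry mediator that binds BTLA, was among the lowest of the receptor genes in both lines. In HT it held 2.41 and 3.25 FPKM with DMSO and 3.32 and 4.54 FPKM with iEZH, which just do not overlap (log2 change 0.36, SE 0.19; limma, adjusted p = 0.353). Without DMSO replicate 1 or iEZH replicate 2 this was 0.20 and 0.18, and without iEZH replicate 1 it was 0.54. In SUDHL6 it held 0.0926 and 0.242 FPKM with DMSO and 0.376 and 0.625 FPKM with iEZH. All 4 lie below the 1 FPKM filter, so it was not tested there with the other genes. The table's header sets reliable quantification at 50 reads, and the iEZH replicate 2 library alone exceeded its threshold of 0.352 FPKM. The ratio of means of 2.99 in SUDHL6 therefore rests on few reads. Without the filter the log2 change was 0.36 (limma, adjusted p = 0.26).

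BANK1 (chromosome 4, 102711763 to 102995969), the scaffold of LYN signalling, had higher values with iEZH in SUDHL6. It held 3.59 and 5.33 FPKM with DMSO and 5.77 and 9.48 FPKM with iEZH, so the groups did not overlap, by a narrow gap. The ratio of means was 1.71 and the log2 change 0.64 (SE 0.28, 95% interval -0.09 to 1.38), above 95.2% of the genes tested, and it did not pass (limma, adjusted p = 0.315). Leaving out single libraries moved the BANK1 log2 change to 0.33 (without iEZH replicate 2), 0.41 (without DMSO replicate 1), 0.96 (without iEZH replicate 1) and 0.88 (without DMSO replicate 2). In HT the libraries held 0.834 and 1.13 FPKM with DMSO and 0.91 and 0.76 FPKM with iEZH. Only 1 of those 4 libraries reached 1 FPKM, so BANK1 was not tested in HT, and without the filter its log2 change was -0.11 (limma, adjusted p = 0.607).

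**Figure D2:**
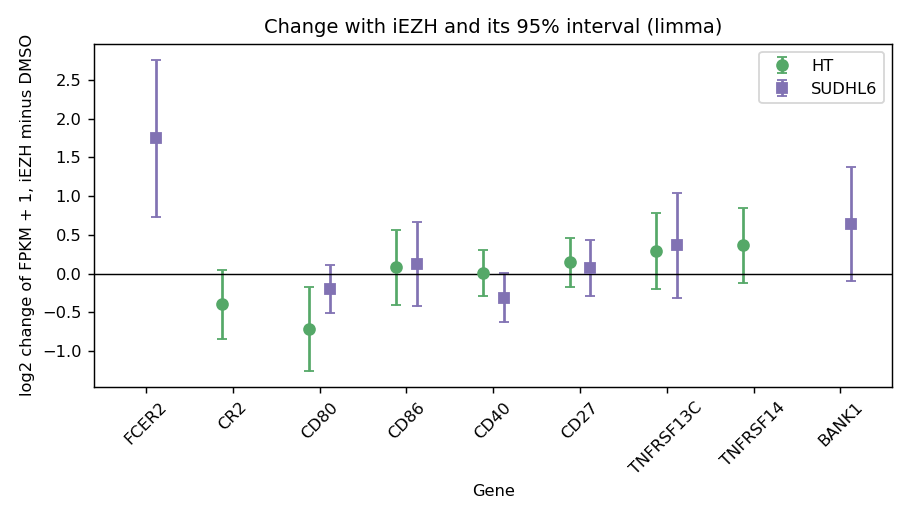
Change of each tested receptor gene on the log2(FPKM + 1) scale, iEZH minus DMSO, with 95% limma intervals over 2 libraries a group; circles are HT and squares SUDHL6. The intervals of FCER2 in SUDHL6 (0.73 to 2.77) and CD80 in HT (-1.26 to -0.17) leave out 0 before adjustment over all genes, and the other 12 include it.

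Over all genes tested, 0 of 7 receptor genes passed limma at an adjusted p of 0.05 in HT and 0 of 7 in SUDHL6. That fit does not pair libraries of the same replicate number. At an unadjusted limma p under 0.05 there was 1 in each line, CD80 in HT and FCER2 in SUDHL6. Of all genes tested, 2424 of 11321 in HT and 2095 of 11173 in SUDHL6 were under that threshold. At an adjusted p of 0.05 the background was low too, since 0.609% of the genes tested in HT and 0.269% in SUDHL6 were called. With genes spanning under 300 bp left out, 5.51% were called in HT and 0.0182% in SUDHL6, and still 0 receptor genes. By the authors' deposited FDR, 0 receptor genes were under 0.05, where 1.53% of HT and 0.393% of SUDHL6 genes were. In HT 2 of the 7 tested genes lay wholly above DMSO (CD27 and TNFRSF14), where 28.5% of all tested genes did, and 2 wholly below (CD80 and CR2), where 23.4% did. In SUDHL6 2 lay wholly above (FCER2 and BANK1, background 28.9%) and 2 wholly below (CD40 and CD80, background 20.6%). These shares are near the background. The median log2 change of the 7 was 0.08 in HT and 0.12 in SUDHL6, beside 0.02 and 0.04 over all genes tested. For the difference between lines, 0 of the 5 receptor genes tested in both lines were called by the limma interaction, where 0.106% of 10426 genes were. Without short genes it was again 0 receptor genes, and 0.0679% of all genes tested. At an unadjusted p under 0.05 there were 0 of the 5 receptor genes, and 1153 of the 10426 genes.

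**Figure D3:**
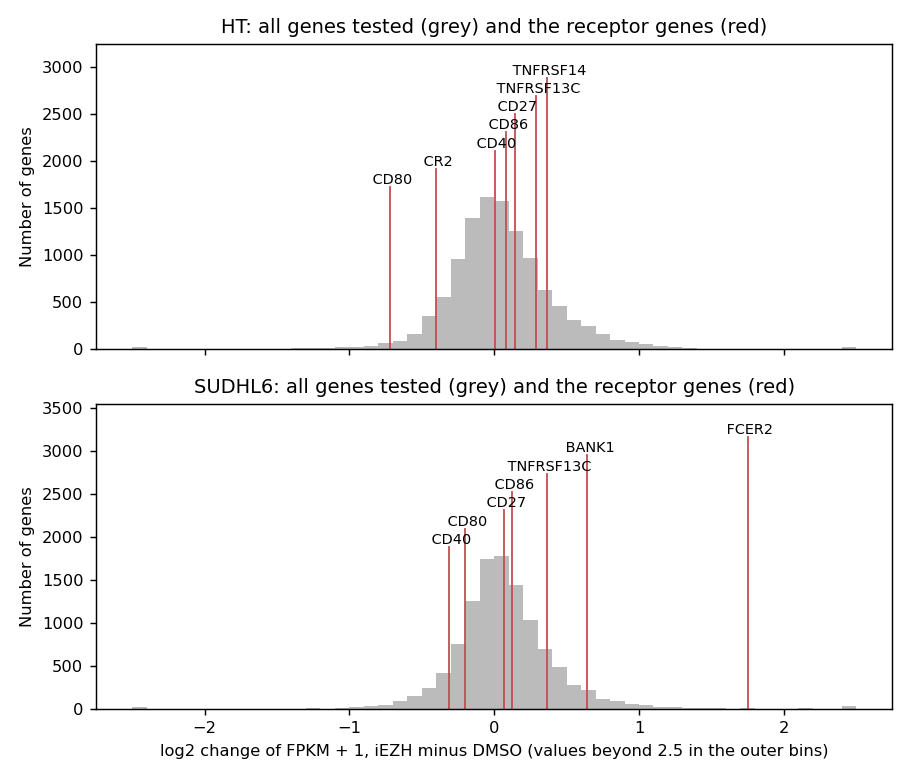
Log2 change of FPKM + 1 with iEZH for all genes tested (grey histogram, number of genes per bin of 0.1) in HT (top) and SUDHL6 (bottom); red lines place the 7 receptor genes tested in each line, at heights chosen only to separate the names. Most lie inside the bulk of the histogram, with CD80 at its lower edge in HT and FCER2, at 1.75, far to the right in SUDHL6.

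The order of levels among the receptor genes measured in both lines was alike in their DMSO libraries, except that TNFRSF14 and BANK1 changed places. FPKM is per length, so genes can be set beside each other within a table. In HT the mean DMSO levels ran from CD27 (97.9 FPKM) through TNFRSF13C (54.1), CD40 (37.3), CD86 (19), CR2 (13.2), CD80 (7.99) and TNFRSF14 (2.83) to BANK1 (0.981), and no neighbours overlapped in their libraries. In SUDHL6 they ran from CD27 (103 FPKM) through TNFRSF13C (67.7), CD40 (64.2), CD86 (37.3), CD80 (18.7), BANK1 (4.46) and FCER2 (1.66) to TNFRSF14 (0.168). There TNFRSF13C and CD40 overlapped, and the other neighbours did not. With iEZH, FCER2 and BANK1 overlapped in SUDHL6. The tables were normalized separately, so the levels of one gene in the lines are given side by side without a test.

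The genes around these receptors were taken from lists written with earlier results of these data known. Of 20 genes that carry TNF receptor signals, the TRAF adaptors and NF-kB factors, 0 passed over all genes in either line, with the smallest adjusted p at 0.0524 in HT and 0.080 in SUDHL6. Few genes passed at all, 0.609% of those tested in HT and 0.269% in SUDHL6. In HT 15 of the 20 had lower values and the median log2 change was -0.23, against 0.02 over all genes. Among all genes tested in HT, 47.9% lay below the change of CD40, which was 0.00. In SUDHL6 9 were lower and the median was 0.03, which became -0.01 under median-ratio rescaling. TRAF3, which holds back the alternative NF-kB pathway, had 4.84 and 4.62 FPKM with DMSO and 10.1 and 11 FPKM with iEZH in HT (limma, adjusted p = 0.0524). NFKB2, a subunit of that pathway, had 51.8 and 59.8 FPKM with DMSO and 23.1 and 27.6 FPKM with iEZH in HT (adjusted p = 0.0533 with limma). Without short genes, TRAF3, TRAF1, NFKB2 and RELB were called in HT, the first 2 as higher and the last 2 as lower, in a fit that called 5.51% of all genes tested. In SUDHL6 RELB, the partner of NFKB2, had 76.1 and 77.1 FPKM with DMSO and 37.7 and 37.5 FPKM with iEZH (limma, adjusted p = 0.080). BIRC3, a ubiquitin ligase of the same pathway, had 44.6 and 54.1 FPKM with DMSO and 29.2 and 33.9 FPKM with iEZH there (adjusted p = 0.151 with limma).

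Of 13 ligands and counter-receptors, 4 were measured in each line and 3 tested, with 0 called. The share called over all genes tested was 0.609% in HT and 0.269% in SUDHL6. CD70, the ligand of CD27, had 70.3 and 53.9 FPKM with DMSO and 124 and 112 FPKM with iEZH in SUDHL6, which do not overlap (log2 change 0.93; limma, adjusted p = 0.125). In HT CD70 overlapped, at 53.5 and 63.4 FPKM with DMSO and 60.7 and 53.5 FPKM with iEZH. TNFSF13, a ligand of the receptors related to TNFRSF13C, had 1.12 and 1.12 FPKM with DMSO and 1.77 and 1.65 FPKM with iEZH in SUDHL6 (adjusted p = 0.2 with limma), and 9.07 and 8.18 against 8.26 and 6.9 FPKM in HT. SPP1, a ligand of CD44, had 0.457 and 0.213 FPKM with DMSO and 2.39 and 1.87 FPKM with iEZH in HT. Both its DMSO libraries lie under the filter, so SPP1 passed it only through iEZH. The filter therefore had a part in its direction, and no p-value is given for it.

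Of 22 other receptors of these families and of B cell activation, 13 were measured and 9 tested in each line, and 0 passed. Over all genes tested, 0.609% passed in HT and 0.269% in SUDHL6. CD83, an activation marker, had 4.56 and 4.23 FPKM with DMSO and 9.85 and 8.55 FPKM with iEZH in HT (limma, adjusted p = 0.0547, and 0.0252 without short genes). The fit without short genes called 5.51% of all genes tested in HT. In SUDHL6 the CD83 libraries did not overlap either, at 89 and 76.9 FPKM with DMSO and 136 and 130.2 FPKM with iEZH (adjusted p = 0.131 with limma). CD58, which binds T cell CD2, had 2.45 and 2.3 FPKM with DMSO and 4.4 and 4.04 FPKM with iEZH in SUDHL6 (limma, adjusted p = 0.119). In HT CD58 had 0.558 and 0.765 against 1.52 and 1.54 FPKM, and it passed the filter only through iEZH. IL21R, a cytokine receptor of germinal centre B cells, had 13.9 and 14.1 FPKM with DMSO and 8.62 and 8.82 FPKM with iEZH in SUDHL6 (adjusted p = 0.113 with limma). The median of the 9 was -0.05 in HT, or -0.13 under quantile normalization, and 0.09 in SUDHL6, or 0.05 under median-ratio rescaling.

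**Figure D4:**
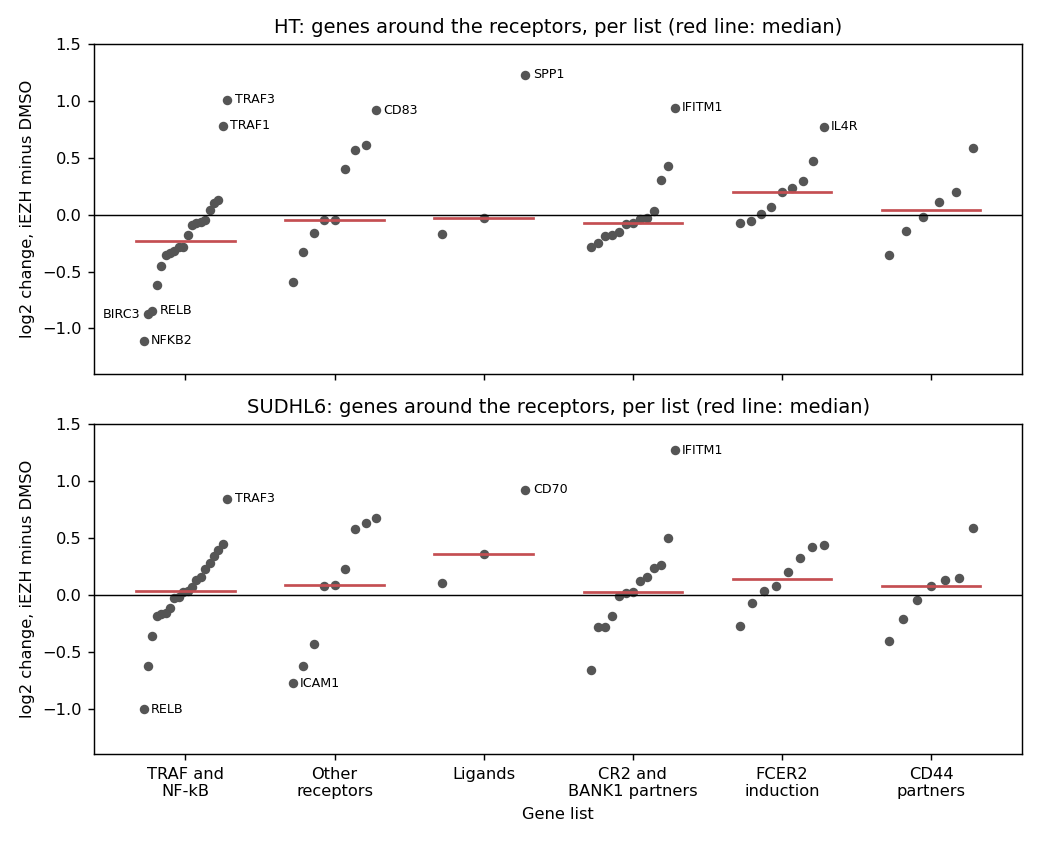
Log2 change of FPKM + 1 with iEZH for the tested genes of 6 lists around the receptors, in HT (top) and SUDHL6 (bottom); each point is 1 gene, red lines are list medians, and genes beyond 0.75 either way are named. In HT the TRAF and NF-kB list is spread widest, from NFKB2 at -1.11 to TRAF3 at 1.01, with a median of -0.23.

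All 13 listed partners of CR2 and BANK1 were tested in both lines and 0 passed, where 0.609% of all genes tested in HT and 0.269% in SUDHL6 did. IFITM1, which joins a complex with CR2 and CD81, had 8.56 and 7.67 FPKM with DMSO and 15.2 and 17.8 FPKM with iEZH in HT (limma, adjusted p = 0.0548, and 0.0252 without short genes). Leaving out short genes, 5.51% of all genes tested in HT were called. CD81, the tetraspanin of that complex, had 314 and 303 FPKM with DMSO and 191 and 199 FPKM with iEZH in SUDHL6 (adjusted p = 0.133 with limma). ITPR1, a calcium channel of the family that BANK1 binds, had 4.68 and 5.47 FPKM with DMSO and 7.5 and 7.62 FPKM with iEZH there (limma, adjusted p = 0.143). In HT ITPR1 had 1.08 and 1.13 against 1.58 and 2.13 FPKM (adjusted p = 0.177 with limma). The list median was -0.077 in HT, turning to 0.0032 under quantile normalization, and 0.025 in SUDHL6, turning to -0.014 under median-ratio rescaling and -0.019 under quantile normalization.

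Of 9 genes of the IL-4, STAT6 and NOTCH2 routes, known to induce FCER2, 9 were tested in HT and 8 in SUDHL6, and 0 passed. Among all genes tested, 0.609% in HT and 0.269% in SUDHL6 passed. STAT6 had 116 and 100.4 FPKM with DMSO and 148 and 145 FPKM with iEZH in SUDHL6, where FCER2 was measured (log2 change 0.44; limma, adjusted p = 0.209). JAK3, a kinase of the IL-4 receptor, had 3.59 and 4.42 FPKM with DMSO and 5.04 and 6.43 FPKM with iEZH there (adjusted p = 0.266 with limma). IL4R itself, the receptor of IL-4, was at 131 and 160.05 FPKM with DMSO and at 111 and 129 FPKM with iEZH in SUDHL6, with the higher iEZH library just under the lower DMSO one (adjusted p = 0.474 with limma). In HT IL4R had 12 and 14.2 FPKM with DMSO and 24.2 and 21.9 FPKM with iEZH (limma, adjusted p = 0.0667, and 0.0365 without short genes). Without short genes 5.51% of all genes tested in HT were called. NOTCH2 had 0.926 and 0.955 against 1.55 and 1.85 FPKM in HT, passing the filter only through iEZH. The list medians were 0.20 in HT, or 0.11 under quantile normalization, and 0.14 in SUDHL6.

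Of 10 partners of CD44, 6 were tested in HT and 7 in SUDHL6, and 0 passed. The share over all genes tested was 0.609% in HT and 0.269% in SUDHL6. RDX, a linker to the cytoskeleton, had 6.6 and 7.33 FPKM with DMSO and 8.58 and 13.9 FPKM with iEZH in HT (limma, adjusted p = 0.24). ADAM17, a sheddase, had 31.5 and 41.8 FPKM with DMSO and 24.2 and 30.6 FPKM with iEZH in SUDHL6 (adjusted p = 0.37 with limma), and 11.8 and 14.9 against 8.71 and 12 FPKM in HT (0.388). CD74, which pairs with CD44 as a receptor, had 1768 and 2322 FPKM with DMSO and 2463 and 3780.1 FPKM with iEZH in SUDHL6 (limma, adjusted p = 0.425). The medians were 0.05 in HT, or 0.09 under quantile normalization and 0.022 under median-ratio rescaling, and 0.08 in SUDHL6, turning to -0.07 under quantile normalization and 0.05 under median-ratio rescaling.

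All 4 germinal centre markers followed, BCL6, MME, MYBL1 and CD38, lay wholly below DMSO in SUDHL6 with iEZH, where 20.6% of all genes tested did. BCL6, the master factor of germinal centre B cells, had 114 and 135 FPKM with DMSO and 73.9 and 79.3 FPKM with iEZH. The summed level of the 4 was 298 to 375 FPKM with DMSO and 202 to 235 FPKM with iEZH. Of the 4, 0 passed (limma, smallest adjusted p = 0.133), where 0.269% of all genes tested in SUDHL6 did. In HT the sums overlapped, at 521 to 568 FPKM with DMSO and 514 to 651 FPKM with iEZH. The part of these markers in the values of FCER2 was not tested.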

How the data were processed

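The authors deposited 1 table of FPKM values per line, made with TopHat 1.4.1 and Cufflinks against hg19 per the submitters' processing notes; the library kit, strandedness, annotation and normalization options are not given in the sources used here. Per the file headers, the tables hold genes rated as detectable, at 10 reads or more. Values below that threshold were set to 1 value per table, 0.0613 FPKM in HT and 0.0712 in SUDHL6, shared by 239 to 507 genes per library. The deposited tables also hold the authors' p-value from a Tukey test, its FDR, and a fold, and a count of total reads per library stands in a sample sheet. Per the file headers, columns were tied to the labelled samples by their custom IDs, with 0 columns left unmatched. Read counts of single genes were not used here, no counting interval is given, and the number of libraries limits the precision.

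Genes reaching 1 FPKM in 2 or more of a line's 4 libraries were fitted as log2(FPKM + 1) with limma 3.58.1 in R 4.3.3 (eBayes with trend), each line alone, without a replicate block. Two-sided p-values were adjusted over every gene of the fit (Benjamini-Hochberg), with calls at an adjusted p under 0.05. Fold changes on this scale understate the change of low genes. The difference between lines is the interaction term of 1 fit of 8 libraries. One HT gene whose value is not a number was left out. The fits were tested on simulated data with a common noise level for all genes, no offset between replicates and no genes under 300 bp. These data differ from that setting, so the simulation does not show how often calls are right here. With 2 libraries against 2, an exact permutation test cannot go below 0.333, so none is given. Alternatives were a stricter filter (5 FPKM) or none, pseudocounts of 0.1 and 0.5, median-ratio and quantile scaling, eBayes without trend or robust, both lines in 1 fit, a replicate block, genes under 300 bp left out (alone or with the block), and each library left out. The genes named are the 10 receptor genes, up to 2 genes per list and line with the smallest p, EZH2 and cell type markers; TRAF1, CD14 and CD22 and second values in the other line were added after values were seen. The members and lists were chosen with earlier results of these data known. Some genes of the lists are not reported here and were left out of the lists' counts and sums.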

Additional observations from a re-analysis of the deposited data

How the results depend on the processing

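With the replicate block, 2 receptor genes passed in HT (CD80 and CR2, both lower, adjusted p = 0.0135 and 0.0412) and 3 in SUDHL6 (FCER2, BANK1 and TNFRSF13C, all higher, adjusted p = 0.0104, 0.0152 and 0.0372), where limma called 2482 HT and 2313 SUDHL6 genes, 21.9% and 20.7% of those tested, instead of 69 and 30. With the block and genes under 300 bp left out, 4 receptor genes passed in HT, 4 in SUDHL6 and 1, CD80, for the difference between lines, where 33.5%, 34.3% and 12.3% of all genes tested did. Same-numbered libraries deviated together (correlation of the replicate differences across genes 0.618 in HT and 0.729 in SUDHL6). The custom IDs also share these numbers between DMSO and iEZH, but no label says what the numbers stand for. The fits with the block therefore remain alternatives. Leaving out 1 library at a time gave 0 called receptor genes in HT, 0 to 1 in SUDHL6 (FCER2 without iEZH replicate 2) and 0 for the difference. No other alternative called a receptor gene in any of the 3 comparisons. Over all genes and without a block, the called genes ranged from 12 (no filter) to 648 (both lines in 1 fit) in HT beside the 69, from 2 (genes under 300 bp left out) to 348 (both lines in 1 fit) in SUDHL6 beside the 30, and from 4 (without HT DMSO replicate 2) to 18 (no filter) for the difference beside 11.

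Changes near 0 turned sign. CD40 in HT became -0.021 under median-ratio rescaling and ran from -0.057 to 0.063 when a library was left out. Over the same omissions the log2 change of CD86 ran from -0.15 to 0.31 in HT and from -0.12 to 0.36 in SUDHL6, and that of CD27 in SUDHL6 from -0.028 to 0.17. For the difference between lines it ran from -0.20 to 0.28 for CD86, -0.17 to 0.021 for CD27 and -0.19 to 0.34 for TNFRSF13C. With 2 libraries a group and no counts per gene, the precision is limited by the number of libraries.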
